A study of Mus musculus with 24 samples.

Results

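The interferon-stimulated genes described here are Ifit3, Ifit1, Isg15, Oasl2, Usp18, Irf7, Bst2 and Ifi27, 8 of the 30270 genes in the deposited tables. They were chosen by symbol, with values of these same tables already known, among them the lower Ifit3 of Vdr-/- mice, so their differences between genotypes and injections are given as a description. Brain tissue of C57BL/6 mice was analysed by RNA-seq in 24 libraries of bilateral punches of the nucleus accumbens (NAc) or the ventral tegmental area (VTA). An NAc and a VTA library with the same number in their labels were taken as 1 mouse, which gave 12 mice. The mice were wild-type (VDR+/+) or lacked the vitamin D receptor (VDR-/-, written Vdr-/- here), and 3 of each genotype received PBS and 3 morphine sulfate at 5 mg/kg, with tissue collected after 90 min. That gave 8 groups of 3 libraries. All mice were injected, and no uninjected group was analysed here. The study states the dose and the 90 min for its NAc RNA-seq, and for the VTA libraries they were taken to be the same. Vdr-/- mice lack the receptor in every tissue from birth, and the methods of the study raised them on a high-calcium, lactose-containing diet. The diet of the wild-type mice of these libraries, and the sex and age of all mice, are not given in the sources used here, so genotype and diet cannot be told apart.

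Interferons are secreted proteins that cells release when they sense viral or misplaced nucleic acid. Type I interferons bind the receptor Ifnar1/Ifnar2, which activates the Jak kinases and, through them, transcription factors that bind short repeats of GAAA in front of interferon-stimulated genes. In the brain a low level of these transcripts is present without infection, in microglia, endothelial cells, astrocytes and neurons. Ifit1 and Ifit3 encode partner proteins that hold foreign RNA, Isg15 encodes a ubiquitin-like protein, and Usp18 removes Isg15 from other proteins and dampens the interferon receptor. Irf7 is the transcription factor that amplifies the response, Oasl2 belongs to the oligoadenylate synthetase family, Bst2 (tetherin) holds budding virus at the cell surface, and Ifi27 encodes a small membrane protein.

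Libraries held 9328726 to 24509922 reads on genes in the NAc and 12421680 to 30184426 in the VTA. Vdr itself had 0 to 17 reads per library in both genotypes, with medians of 6 reads in Vdr-/- and 2.5 in wild-type NAc libraries and of 7.5 and 8 in the VTA, so these counts do not check the genotype, which was taken from the labels. The summed normalized read count of 8 medium spiny neuron markers was 29937 to 63048 in NAc and 2781 to 4040 in VTA libraries. The sum of 8 dopamine neuron markers in the VTA was 30097 to 38976 in wild-type mice given PBS, 5257 to 28816 in Vdr-/- mice given PBS, 6497 to 14092 in Vdr-/- mice given morphine and only 1668 to 6062 in wild-type mice given morphine, so VTA punches of these groups differed in the labelled tissue's own markers. One NAc library, of wild-type PBS mouse 2, stood apart: over 12872 genes its deviation from its group fell with exon length (Spearman's rho -0.44, against -0.18 to 0.14 in libraries of the other groups, and 0.35 and 0.31 in the other 2 libraries of its group).

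Ifit3, Ifit3b and Ifit1 lie on the plus strand of chromosome 19 (GRCm38) within the cluster of Ifit genes, at chr19:34583531-34588731, chr19:34607970-34613401 and chr19:34640871-34650009, with Ifit2 before them at chr19:34550694-34576419. Isg15 lies at chr4:156199424-156200818, Oasl2 at chr5:114896936-114912234, Usp18 at chr6:121245906-121270917, Irf7 at chr7:141262706-141266481, Bst2 at chr8:71534255-71537456 and Ifi27 at chr12:103434211-103440239. RefSeq promoter windows (GRCm38.p6, 250 bases before to 50 after the start) were found for 6 of the 8 genes, and 4 of these (Ifit3, Ifit1, Isg15 and Bst2) held GAAANNGAAA on either strand, that is GAAANNGAAA or its reverse complement TTTCNNTTTC, the core of the interferon-stimulated response element. Of all 32851 windows, 3.44% held it. The windows of Oasl2 and Irf7 did not hold these letters. The 200 bases before the start are shown for Ifit3 and for its neighbour and close copy Ifit3b, because the results below turn on telling these apart, and for Ifit1 and Isg15, which carry the same motif but whose levels differed from those of Ifit3. Each is written 5′ to 3′ on the strand of the gene, with the motif in capitals.
Ifit3 (chr19:34583329-34583528, plus strand): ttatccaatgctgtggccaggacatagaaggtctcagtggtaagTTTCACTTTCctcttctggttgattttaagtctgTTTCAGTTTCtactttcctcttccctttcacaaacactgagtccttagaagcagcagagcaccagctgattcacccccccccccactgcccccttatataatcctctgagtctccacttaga
Ifit3b (chr19:34607757-34607956, plus strand): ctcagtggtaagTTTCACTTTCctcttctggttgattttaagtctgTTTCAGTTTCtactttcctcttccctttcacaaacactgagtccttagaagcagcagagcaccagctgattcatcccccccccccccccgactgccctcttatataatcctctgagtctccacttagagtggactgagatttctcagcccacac
Ifit1 (chr19:34640689-34640888, plus strand): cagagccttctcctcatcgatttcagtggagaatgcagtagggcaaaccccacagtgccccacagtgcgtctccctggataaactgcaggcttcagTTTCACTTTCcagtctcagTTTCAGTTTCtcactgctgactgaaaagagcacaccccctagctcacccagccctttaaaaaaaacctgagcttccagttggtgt
Isg15 (chr4:156200819-156201018, minus strand): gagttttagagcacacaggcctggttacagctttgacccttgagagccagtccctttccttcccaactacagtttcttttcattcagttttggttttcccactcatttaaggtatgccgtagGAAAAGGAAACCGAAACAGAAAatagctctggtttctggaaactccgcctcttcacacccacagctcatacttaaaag
The motifs began 156 and 122 bases before the start in Ifit3, 188 and 154 in Ifit3b, 104 and 85 in Ifit1, and 78, 72 and 66, overlapping each other, in Isg15. The stretches of Ifit3 and Ifit3b shared a run of 119 identical bases that holds both motifs, whereas those of Ifit3 and Ifit1 shared at most 13. A match is a description of the letters and not a measured binding site.

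All 8 genes were expressed at low levels. Per length, as RPKM, that is reads on the gene scaled to its exon length and to all reads on genes (mean ± SD over 24 libraries), Ifi27 stood at 9.54 ± 1.76, Ifit3 at 2.50 ± 1.53, Bst2 at 1.12 ± 0.47, Ifit1 at 0.94 ± 0.43, Isg15 at 0.66 ± 0.36, Oasl2 at 0.63 ± 0.25, Irf7 at 0.39 ± 0.16 and Usp18 at 0.29 ± 0.14. Ifi27 was above Ifit3 by more than their spread, while from Ifit3 down each gene lay within 1 SD of its neighbour in this order. The precision follows from the reads: a library held 0 to 21 reads on Isg15, 3 to 52 on Usp18, 2 to 52 on Bst2 and 9 to 60 on Irf7, but 17 to 251 on Ifit3 and 109 to 471 on Ifi27. Reads counted here are not separate molecules, so counting error is a lower limit of the error. Values given below per library are reads divided by size factors set over all 24 libraries (normalized read count), whereas log2 differences and their SE come from the fit within each deposited table of 2 groups, on log2(value + 1), which understates changes of low genes. In bulk tissue fewer cells of a type and less RNA per cell cannot be told apart.

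**Figure D1:**
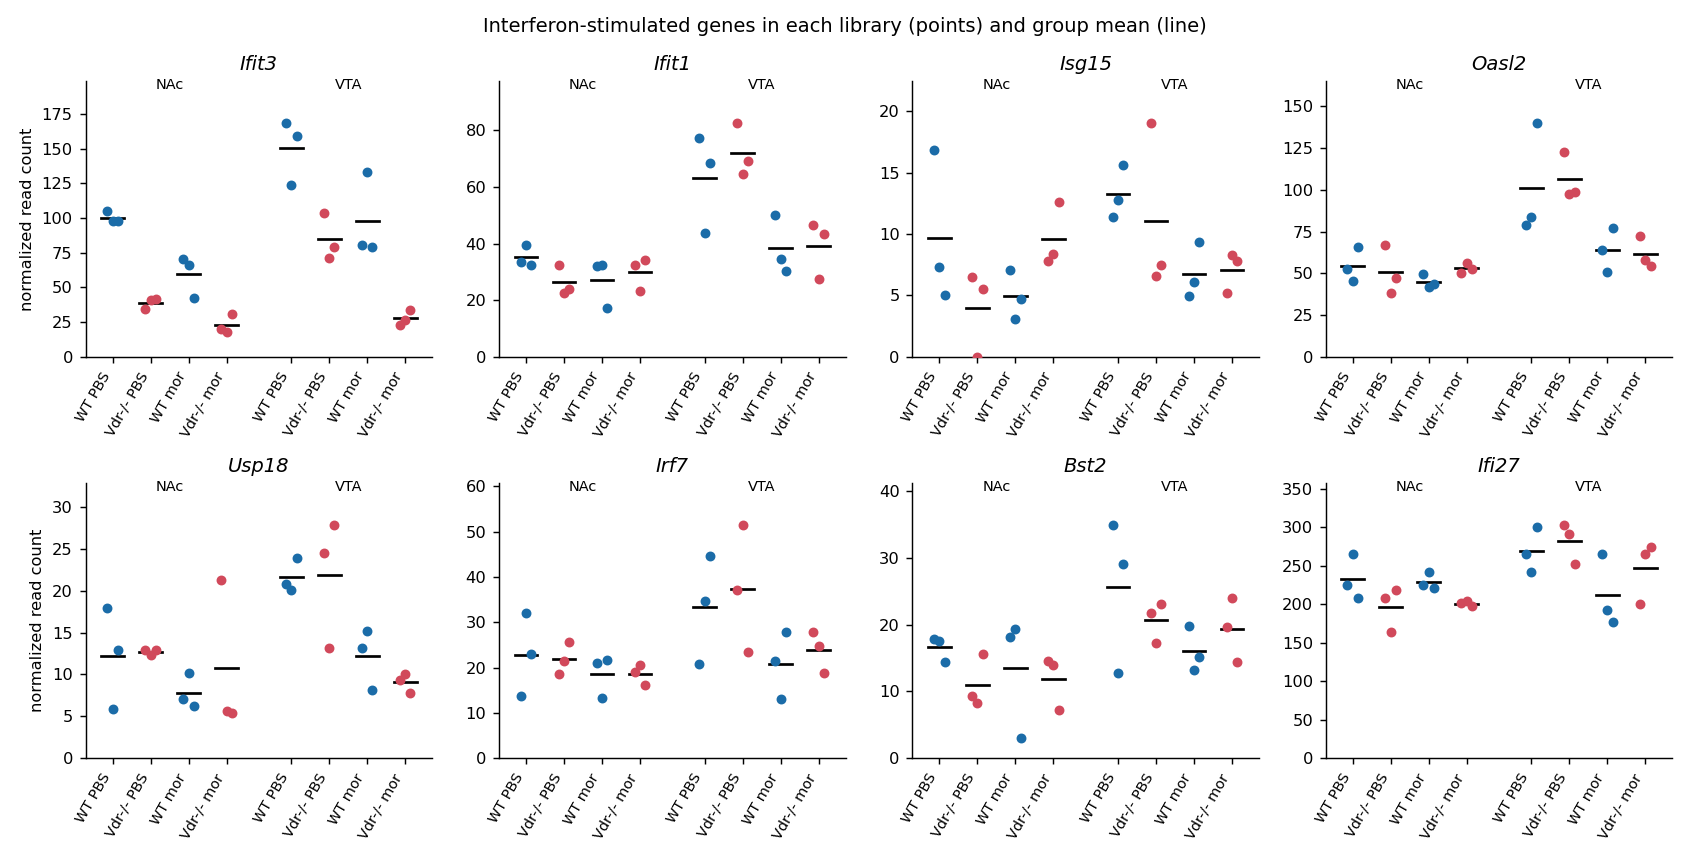
Normalized read count of each of the 8 genes (vertical axis, starting at 0) in every library, by group, with wild-type in blue, Vdr-/- in red and a bar at the group mean of 3 mice. Ifit3 is the gene whose Vdr-/- points lie below the wild-type points in both regions and with both injections, and the other genes' points overlap in most groups.

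Ifit3 was lower in Vdr-/- than in wild-type mice in both regions and with both injections. After PBS, its normalized read count in the NAc was 105, 97.7 and 97.6 in the wild-type mice and 34.3, 41.0 and 41.4 in the Vdr-/- mice. After morphine, it was 70.4, 66.1 and 42.1 against 20.1, 17.7 and 30.7. The highest Vdr-/- library stayed below the lowest wild-type library in each case. In the VTA after PBS the values were 168, 124 and 159 in wild-type and 103, 71.3 and 79.2 in Vdr-/- mice, and after morphine 80.6, 133 and 79.2 against 22.7, 26.7 and 33.3. These groups did not overlap either, and the lowest values of Ifit3 in the VTA were those of Vdr-/- mice given morphine.

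The log2 difference of Ifit3 (Vdr-/- minus wild-type) was -1.33 ± 0.14 (SE, 3 against 3 mice; 2.52-fold lower) in the NAc after PBS, -1.34 ± 0.28 (2.53-fold) in the NAc after morphine, -0.83 ± 0.18 (1.78-fold) in the VTA after PBS and -1.75 ± 0.25 (3.37-fold) in the VTA after morphine. Without wild-type PBS mouse 2, the library that stood apart, the first of these was -1.36. Of all genes tested, 9.68%, 7.39%, 10.7% and 7.45% were lower in Vdr-/- mice without overlap in the same 4 comparisons, and 0.253% (38 of 15002) in all 4. Of the interferon-stimulated genes, 6 were tested in all 4 comparisons, and Ifit3 was the only one of these lower without overlap in each. Since the genes were chosen with this difference known, nothing is read from that count. By limma with Benjamini-Hochberg adjustment over all genes, Ifit3 passed the threshold of 0.05 in the NAc after PBS, where 0.0690% of genes did (a call lost without any 1 library but that of wild-type PBS mouse 2), and did not pass in the other comparisons, where 0.192% (NAc, morphine), 0.390% (VTA, PBS) and 0.0624% (VTA, morphine) did. DESeq2 on the recovered reads called Ifit3 in each of the 4. With 3 mice against 3 an exact permutation test cannot give a p below 0.1. The 4 comparisons come from the same 12 mice, each mouse giving a punch to 1 NAc and 1 VTA comparison.

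Of the other 7 genes, none showed a difference of that size in a comparison in which it was tested. Their log2 differences between genotypes ran from -0.58 (Bst2, NAc after PBS) to 0.25 (Bst2, VTA after morphine), and none of them was called in any of the 4 comparisons by limma, edgeR or DESeq2. Ifit1, of the same family as Ifit3, was 41.0 ± 16.96 in the 12 wild-type libraries and 41.9 ± 20.05 in the 12 Vdr-/- libraries (mean ± SD). For Ifit3 these values were 102 ± 38.2 and 43.5 ± 26.9. In the NAc after PBS, Ifit1 was 33.7, 39.4 and 32.3 in wild-type and 32.4, 22.6 and 23.9 in Vdr-/- mice, so that the groups overlapped. Oasl2 was 52.6, 45.2 and 66.0 against 66.7, 37.9 and 46.9 in the same libraries, with 1 Vdr-/- mouse above all wild-type mice.

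Of the other members tested, 2 did not overlap between genotypes, both in the NAc after morphine and in opposite directions. Ifi27 was 225, 242 and 221 in wild-type and 201, 204 and 197 in Vdr-/- mice (log2 difference -0.19 ± 0.09), and Oasl2 was higher in Vdr-/- mice, at 50.2, 56.0 and 52.4 against 49.3, 41.7 and 43.6 (0.23 ± 0.18). These are small against the difference of Ifit3 in the same libraries. Irf7 differed by 0.02 to 0.24 between genotypes over the 4 comparisons, with SE of 0.30 to 0.35. Usp18, tested in 3 of them, ran from -0.35 to 0.19, and Isg15, which had a mean value of at least 10 only in the VTA after PBS, was at -0.39 ± 0.41 there, where the SE leaves room for a change of the size seen for Ifit3. In the other 3 comparisons Isg15 was not tested, so a difference as large as that of Ifit3 cannot be set aside for it. In the NAc its normalized read count was 5.02 to 16.8 in wild-type and 0 to 6.49 in Vdr-/- mice after PBS, with overlap, and 3.05 to 7.04 in wild-type against 7.82 to 12.7 in Vdr-/- mice after morphine, higher in Vdr-/- mice without overlap. These Isg15 values rest on 0 to 16 reads per library. Usp18 was not tested in the NAc after morphine, at 6.23 to 10.2 in wild-type and 5.42 to 21.2 in Vdr-/- mice, with overlap. Bst2 was at -0.19 ± 0.37 in the VTA after PBS, where the SE leaves room for a change of the size of Ifit3 there. In the NAc after morphine it was at 0.08 ± 0.57, with a wide SE.

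**Figure D2:**
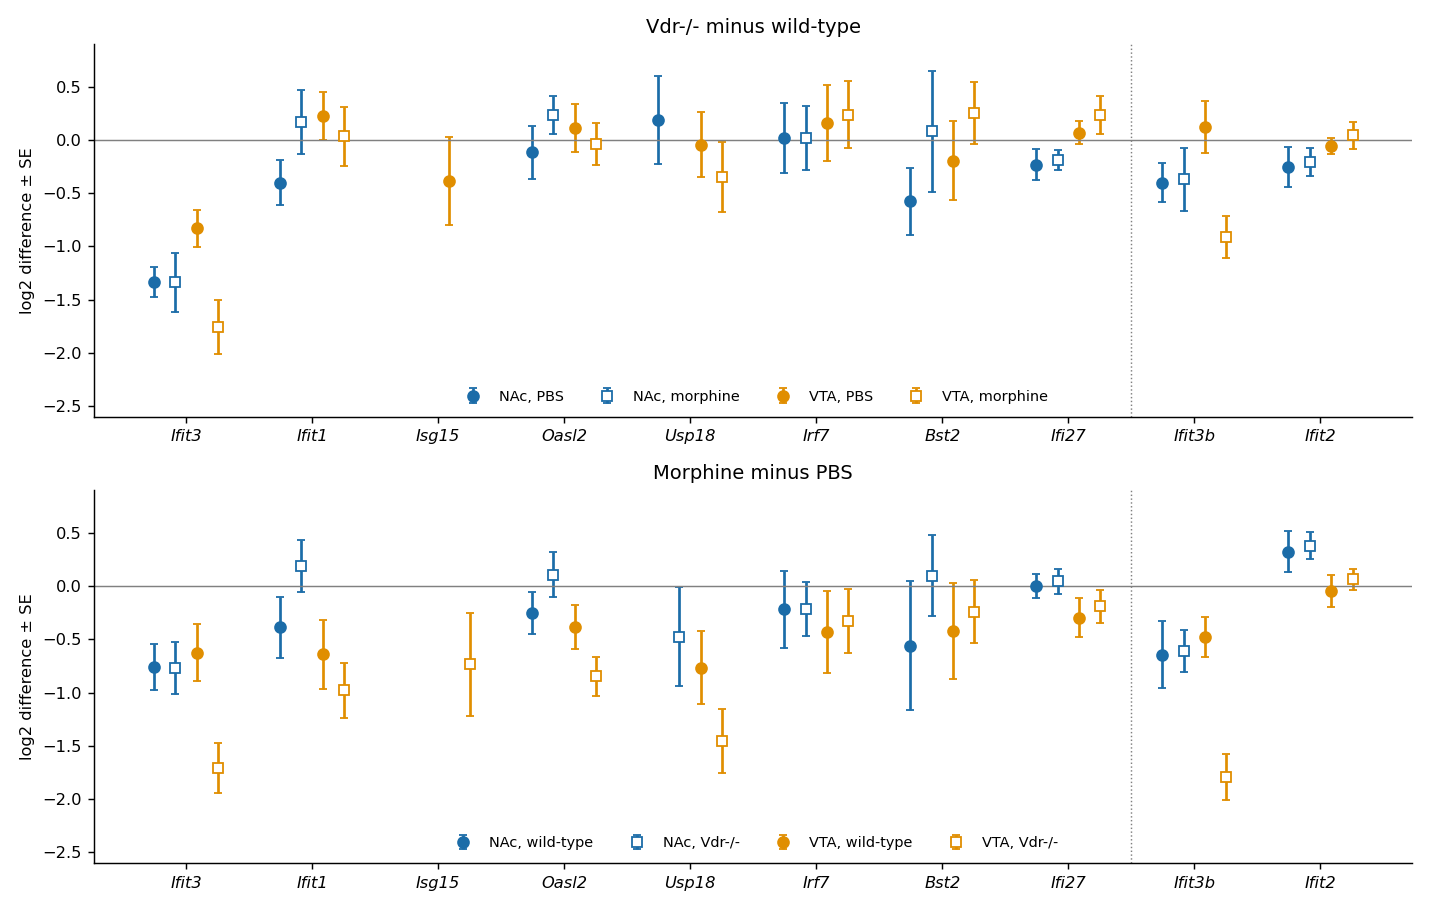
Log2 difference ± SE from the fit within each deposited table for the 8 genes and, right of the dotted line, Ifit3b and Ifit2, with NAc in blue, VTA in orange, filled circles for PBS (upper panel) or wild-type (lower panel) and open squares for morphine or Vdr-/-. The upper panel (Vdr-/- minus wild-type) shows Ifit3 between -1.75 and -0.83 and the other members, where tested, between -0.58 and 0.25, and the lower panel (morphine minus PBS) shows the lowest values for Ifit3, Ifit3b and Usp18 in the VTA of Vdr-/- mice.

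Ifit3 has a close copy, Ifit3b, next to it on chromosome 19. Of the 1645 stretches of 101 bases in the Ifit3 exons, 515 (31.3%) also occur in another gene, whereas 82 of 2556 (3.21%) do for Ifit1, all with Ifit1bl2, and none for the remaining members. A read within such a stretch cannot by itself be assigned to 1 gene, although the other read of its pair may place it. The level of Ifit3 is therefore less certain than that of the others, and part of it may be lost or placed on the copy in counting. Usp18 shares 124 exon bases with Gm44148 and Irf7 shares 45 with Phrf1, each on the opposite strand. The kit marks strand, but which strand setting was used for counting is not given in the sources used here.

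The differences of Ifit3b between genotypes were smaller than those of Ifit3. Its log2 difference (Vdr-/- minus wild-type) was -0.40 in the NAc after PBS, -0.37 in the NAc after morphine, 0.12 in the VTA after PBS and -0.91 in the VTA after morphine. In the last of these it was 1.88-fold lower without overlap, at 35.1 to 51.1 in Vdr-/- and 67.6 to 93.3 in wild-type mice, and in the other 3 the groups overlapped. Over the 12 libraries of a genotype it was 76.8 ± 27.2 in wild-type and 63.5 ± 43.5 in Vdr-/- mice, and Ifit2, which encodes another protein of the family, was 188 ± 74.4 and 177 ± 80.5. In consequence the share of Ifit3 in the reads of Ifit3 and Ifit3b, which does not depend on how libraries are scaled, was 49.0% to 61.5% in the 12 wild-type libraries (57.0 ± 4.17%) and 35.8% to 47.2% in the 12 Vdr-/- libraries (40.9 ± 3.83%). The genotypes did not overlap in this share in either region or with either injection. Expressed as a ratio, there were 1.35 ± 0.21 reads of Ifit3 per read of Ifit3b in wild-type and 0.70 ± 0.11 in Vdr-/- mice.

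**Figure D3:**
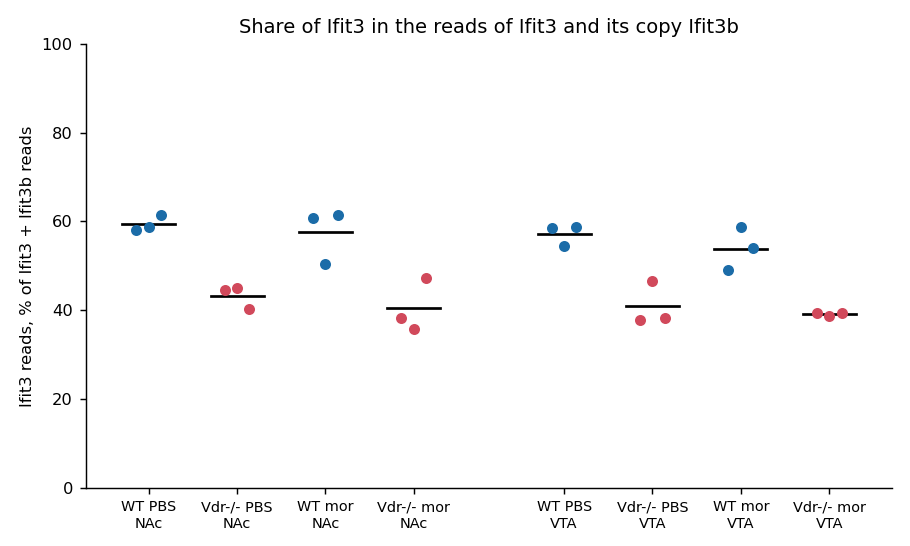
Reads of Ifit3 as a percentage of the reads of Ifit3 and Ifit3b together (vertical axis, from 0 to 100) in each library, by group, with wild-type in blue, Vdr-/- in red and a bar at the mean of 3 mice. The wild-type points lie at 49.0% to 61.5% and the Vdr-/- points at 35.8% to 47.2%, in both regions and with both injections.

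After morphine, Ifit3 was lower than after PBS in all 4 settings. In the VTA the other members tested also had lower values in both genotypes. With Ifit3 these were all 7 members tested in wild-type and all 8 in Vdr-/- mice. The medians of these 7 and 8, Ifit3 included, were -0.43 and -0.79 (log2), against -0.005 and -0.002 over all genes. In the VTA the tables for this comparison have 5 libraries, since PBS mouse 3 is missing from the wild-type table and PBS mouse 8 from the Vdr-/- table. Each of these comparisons shares its groups with 2 of the genotype comparisons above, so their values are not independent of them. In the NAc the log2 difference of Ifit3 (morphine minus PBS) was -0.76 ± 0.21 (1.69-fold lower) in wild-type and -0.77 ± 0.25 (1.70-fold) in Vdr-/- mice, and the values listed above did not overlap between injections. In the VTA it was -0.62 ± 0.27 (1.54-fold) in wild-type mice, where 1 mouse given morphine, at 133, lay above 1 given PBS, at 124, and -1.71 ± 0.23 (3.27-fold) in Vdr-/- mice, without overlap.

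In this paragraph the log2 differences leave out PBS mouse 8 (Vdr-/-) and PBS mouse 3 (wild-type) unless stated, although their values are listed. Usp18 in the VTA of Vdr-/- mice was 24.5, 13.2 (mouse 8) and 27.8 after PBS and 9.29, 10.1 and 7.78 after morphine. Its log2 difference was -1.46 ± 0.30 (2.75-fold lower) without the mouse at 13.2. It was -1.54 to -1.13 under other settings, 1 of them with all 3 PBS mice. In wild-type mice Usp18 was 20.8, 20.04 and 23.8 (mouse 3) after PBS and 13.2, 15.2 and 8.16 after morphine (-0.77). All mice given morphine were below all given PBS in both genotypes, at 7 to 16 reads per library after morphine. Oasl2 in the VTA of Vdr-/- mice was 123, 97.8 and 98.5 after PBS and 72.3, 57.9 and 54.5 after morphine (-0.85 ± 0.18, 1.80-fold lower), and in wild-type mice 79.2, 83.8 and 140.0 after PBS and 64.1, 50.7 and 76.9 after morphine (-0.39 in the table of 5 libraries, which leaves out the mouse at 140.0, and -0.64 with all 3 PBS mice from recovered reads). Ifit1 in the VTA was 82.6, 64.7 and 69.1 after PBS and 46.5, 27.6 and 43.3 after morphine in Vdr-/- mice (-0.98 ± 0.26, 1.97-fold lower), again without overlap. In wild-type mice it was 77.2, 43.7 and 68.5 after PBS and 50.2, 34.5 and 30.3 after morphine (-0.64), and these groups overlapped.

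By limma, 3 of the 8 members tested were called in the VTA of Vdr-/- mice, namely Ifit3, Usp18 and Oasl2, all lower with morphine, where 10.02% of all genes were called and 5.28% called lower. With all 3 Vdr-/- mice given PBS, from recovered reads, Usp18 was no longer called, and without 1 library at a time 0 to 4 members were, with 0 without PBS mouse 7. In the NAc of Vdr-/- mice 1 of 7 was called, Ifit3 (adjusted p = 0.0497 by limma), where 19.1% of all genes were called and 9.13% called lower. That call was lost with a pseudocount of 0.5, no filter, no variance trend or DESeq2, with a mean of at least 50, under which Ifit3 is not tested, and without any 1 library but 1 of the mice given morphine. None was called in the wild-type NAc (0 of 6, with 0.813% of all genes called) or the wild-type VTA (0 of 7, with 3.65%). At an unadjusted p under 0.05 there was 1 member in the former and 0 in the latter, and edgeR and DESeq2 called 0 in both. Of the members tested, lower without overlap were Ifit3 in the NAc of both genotypes, Usp18 and Oasl2 in the wild-type VTA, and Ifit3, Ifit1, Usp18 and Oasl2 in the Vdr-/- VTA. The share of all genes lower without overlap was 13.2% in the wild-type NAc, 19.4% in the Vdr-/- NAc, 22.96% in the wild-type VTA and 24.7% in the Vdr-/- VTA. Of the remaining members in the VTA, Irf7 was at -0.43 and -0.33, Bst2 at -0.42 and -0.24 and Ifi27 at -0.30 and -0.19 in wild-type and Vdr-/- mice, and Isg15 at -0.73 in Vdr-/- mice. In the NAc, Ifit1 was at -0.39 in wild-type and 0.19 in Vdr-/- mice, Oasl2 at -0.25 and 0.11 and Bst2 at -0.56 and 0.10, and Usp18, tested in Vdr-/- mice, at -0.48, each within 2 SE of 0. Isg15, not tested there, was higher after morphine without overlap in the Vdr-/- NAc, at 7.82 to 12.7 against 0 to 6.49 after PBS. In the wild-type VTA Isg15 was also not tested, and it was lower after morphine without overlap, at 4.93 to 9.32 against 11.4 to 15.6 after PBS.

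Markers of cell types also differed between the injection groups. An effect of the injection and a different tissue content of the punches cannot be told apart here. All 8 microglia markers had lower values after morphine in each of the 4 comparisons, with 1 called in the wild-type NAc, 6 in the Vdr-/- NAc, 5 in the wild-type VTA and 2 in the Vdr-/- VTA by limma. Their summed normalized read count was 5732 to 6231 after PBS and 4232 to 4790 after morphine in the wild-type NAc, 5266 to 5604 and 4314 to 4678 in the Vdr-/- NAc, 5376 to 6235 and 3253 to 3595 in the wild-type VTA, and 4315 to 5910 and 3504 to 3952 in the Vdr-/- VTA. The 8 medium spiny neuron markers also had lower values after morphine in the NAc, with 3 called and a median of -0.69 (log2) in wild-type mice, and 8 called and a median of -0.56 in Vdr-/- mice. Their sum there was 53352 to 63048 after PBS and 32804 to 42276 after morphine in wild-type mice, and 47029 to 54649 and 29937 to 34760 in Vdr-/- mice. Of 6 astrocyte markers 2 were called higher in the wild-type NAc, and 4 higher and 1 lower in the Vdr-/- NAc. The lower dopamine neuron markers in the VTA of wild-type mice given morphine, reported above, included Th at -3.35 and Slc6a3 at -4.68 (log2). The part of these markers in the differences of the interferon-stimulated genes was not tested. Between genotypes none of the 8 microglia markers was called in any of the 4 comparisons, although all 8 had lower values in Vdr-/- mice after PBS in both regions and higher values in the VTA after morphine, and their part in the differences between genotypes was not tested.

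The test of whether the morphine difference depended on genotype used all 12 libraries of a region. No gene passed by limma in the NAc or the VTA (0% of genes called in each). Ifit3 in the NAc had an interaction of -0.01 ± 0.33 (log2, adjusted p = 0.997 by limma) and in the VTA of -0.93 ± 0.32 (adjusted p = 0.365 by limma), the morphine difference being more negative in Vdr-/- mice. At an unadjusted p under 0.05 there were 0 of 6 members in the NAc and 1 of 8, Ifit3, in the VTA, and edgeR called 0 in both. The other members' interactions in the VTA ran from -0.31 ± 0.44 (Usp18) to 0.46 ± 0.56 (Isg15). A difference between the genotypes in the response to morphine was therefore not detected for any member, and for the VTA the interval of Ifit3 is wide.

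Between regions the members tested differed in 1 direction. Within mice, 7 of the 7 members tested were lower in the NAc than in the VTA by limma on the difference between both punches of a mouse, where 72.9% of all genes were called and 37.8% called lower in the NAc. Ifit1 was at -0.77 ± 0.10 (log2, NAc minus VTA, 12 mice; adjusted p = 2.41e-05 by limma), with 17.1 to 39.4 in the NAc and 27.6 to 82.6 in the VTA. It was higher in the VTA in all 12 mice, as were Ifit3 and Oasl2. Ifit3 was at -0.66 ± 0.10 (adjusted p = 4.72e-05 by limma) and Oasl2 at -0.66 ± 0.08 (adjusted p = 9.87e-06 by limma). For Oasl2 the range was 37.9 to 66.7 in the NAc and 50.7 to 140.0 in the VTA, so that the regions overlapped between mice but not within any mouse.

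Bst2 was at -0.65 ± 0.21 (adjusted p = 0.0142 by limma) and higher in the VTA in 10 of 12 mice. Usp18 was at -0.54 ± 0.19 (adjusted p = 0.0232) and higher in 11, and Irf7 at -0.42 ± 0.13 (adjusted p = 0.0116) and higher in 10, both by limma. Ifi27, the most abundant of the 8, differed least, at -0.22 ± 0.08 (adjusted p = 0.0237 by limma), and was higher in the VTA in 8 of 12 mice. Isg15, under a mean of 10 and so not tested, was higher in the VTA in 7 of 12. Without the 3 wild-type mice given morphine, whose VTA punches held the low dopamine neuron markers, 6 of the 7 were still called, and Usp18 was at -0.53 (adjusted p = 0.068 by limma). Of cell type markers, 7 of 8 endothelial markers were lower and 6 of 8 microglia markers higher in the NAc than in the VTA. Lower in the NAc were also 6 of 6 meninges, 3 of 4 border macrophage, 3 of 3 erythrocyte and 5 of 6 astrocyte markers, with 1 astrocyte marker higher. Their part in the regional difference was not tested.

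**Figure D4:**
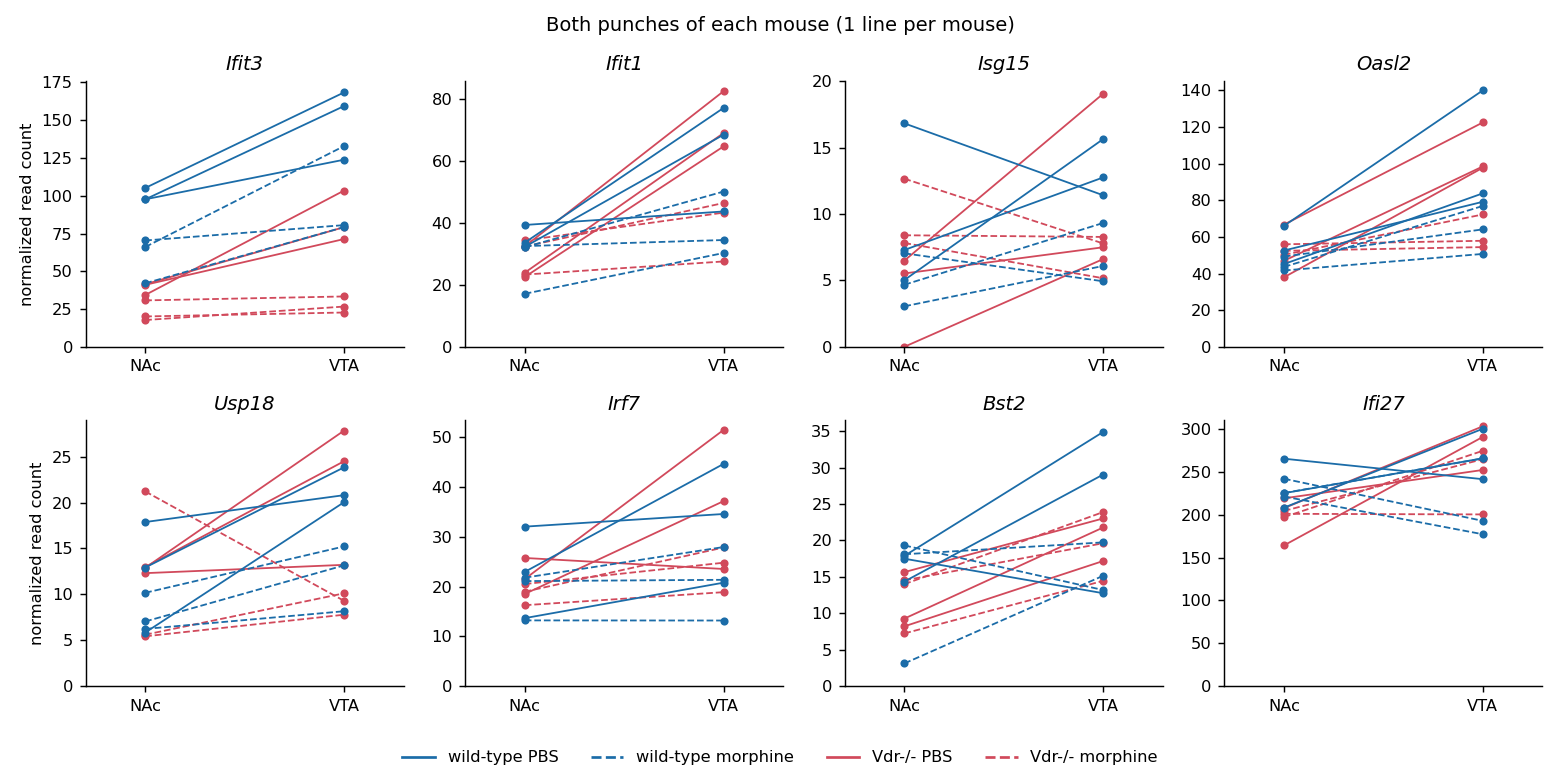
Normalized read count of each of the 8 genes in the NAc and VTA punches, with 1 line for each of the 12 mice, blue for wild-type and red for Vdr-/-, solid for PBS and dashed for morphine. Lines for Ifit3, Ifit1 and Oasl2 rise to the VTA in all 12 mice, those of Isg15 in 7, and the dashed red lines of Vdr-/- mice given morphine are among the flattest for Ifit3, Ifit1 and Oasl2.

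The regional difference was also compared between groups. No gene was called for a difference between genotypes, with PBS (0%) or with morphine (0%). For a difference between injections, 6.69% of all genes were called in wild-type mice and 0.545% in the Vdr-/- genotype, and no member was among them. In Vdr-/- mice the NAc minus VTA difference of Ifit1 was -1.43 ± 0.09 (mean ± SD of 3 mice, log2) after PBS and -0.36 ± 0.14 after morphine, a change of 1.08 ± 0.30 (SE; adjusted p = 0.142 by limma). The change was 0.88 ± 0.23 for Oasl2 (adjusted p = 0.123) and 0.81 ± 0.27 for Ifit3 (adjusted p = 0.213), both by limma, and these 3 of the 7 members were at an unadjusted p under 0.05. In wild-type mice the same change was 0.30 ± 0.30 for Ifit1, 0.36 ± 0.23 for Oasl2 and -0.12 ± 0.27 for Ifit3, none of which passed at either level.

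The wider pathway was read from 5 lists with 150 genes, 140 of them in the tables: other interferon-stimulated genes, interferons and their receptors, Jak, Stat and Irf factors, sensors of nucleic acid, and antigen presentation with interferon-gamma targets. Ifnb1, Ifna1, Ifna4, Ifnk, Ifne, Ifnl2 and Ifnl3, the interferons themselves, are not listed in the tables, where a gene needs at least 2 reads in sum to be listed. Between genotypes, few genes of any kind were called, 0.0690%, 0.192%, 0.390% and 0.0624% of all genes tested, and of these lists 0 of 111 in the NAc after PBS, 1 of 112 in the NAc after morphine, 1 of 122 in the VTA after PBS and 0 of 115 in the VTA after morphine, with medians of -0.02, 0.001, -0.03 and 0.08 (log2) against 0.01, 0.001, -0.002 and 3.47e-05 over all genes. The lists' counts are therefore not a result about them. In the comparisons with 0, limma had 14 and 9 genes at an unadjusted p under 0.05, edgeR called 0 in both and DESeq2 1 in both.

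The gene called in both was Aim2, a sensor of DNA in the cytosol, and these calls were lost with no variance trend and without single libraries (0 to 1 gene called). In the NAc it was 101 to 112 in wild-type and 37.1 to 54.3 in Vdr-/- mice after PBS (log2 difference -1.17 ± 0.17, adjusted p = 0.184 by limma), and 83.4 to 132 against 34.6 to 42.9 after morphine (-1.33 ± 0.20, adjusted p = 0.0270 by limma). In the VTA it was 68.3 to 92.4 against 31.0 to 39.6 after PBS (-1.17 ± 0.17, adjusted p = 0.0472 by limma) and 38.5 to 53.8 against 23.9 to 26.7 after morphine (-0.75 ± 0.21, adjusted p = 0.452 by limma). Like Ifit3 it was lower without overlap in all 4 comparisons. Of 107 genes of the lists tested in all 4, this held for 2, Aim2 and Adar, against 0.253% of all genes. Both were singled out after their values were seen, so nothing is read from that count. Adar encodes an enzyme that edits double-stranded RNA, and its means differed by a smaller fold than those of Ifit3. They were 4860 in wild-type and 4192 in Vdr-/- mice in the NAc after PBS, and 5150 and 4582 after morphine. In the VTA they were 5405 and 4812 after PBS, and 6455 and 5282 after morphine.

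After morphine in the VTA, more genes of the lists had lower than higher values. In the main fits, which leave out a PBS mouse of each genotype, the share called was no larger than over all genes in wild-type mice (0.862% against 3.65%). It was near that of all genes in the other genotype (10.8% against 10.02%). The wild-type count depended on the mouse left out. With every PBS mouse, from recovered reads, 20 list genes were called in wild-type mice, where 2001 of 16269 genes were called. In Vdr-/- mice fewer list genes were called with every PBS mouse than in the main fit. For these fits the number of list genes tested, and in Vdr-/- mice the share of all genes called, are not given here. The counts are therefore not read as a result about the lists. In the main fit of wild-type mice 89 of 116 genes had lower values, with a median of -0.31 (log2) against -0.01 over all genes. Only Irf8, a factor of microglia and other myeloid cells, was called in that fit, at -1.31 ± 0.25 (adjusted p = 0.0432 by limma). The list of other interferon-stimulated genes was lower in 39 of 47 there (median -0.32) and that of antigen presentation in 25 of 27 (median -0.44). In Vdr-/- mice 86 of 120 had lower values (median -0.19, against -0.002 over all genes), and 11 fell and 2 rose by limma, all 13 of which were lost with no variance trend (0 called). Ifit3b fell by 1.79 on the log2 scale (adjusted p = 0.0077), and with it Parp12, Eif2ak2 (the kinase that halts translation on double-stranded RNA), Lgals3bp, Trim25, Xaf1, Ly6e, Gbp3, Gbp5, H2-D1 and Tlr3, by 0.25 to 1.14. Irf9 rose by 0.57 and Jak2 by 0.26. The lower microglia markers after morphine given above stand beside these values, and their part was not tested.

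In the NAc after morphine the lists did not move together. In wild-type mice 0 of 109 were called by limma (14 at an unadjusted p under 0.05, and 1 by each of edgeR and DESeq2). In Vdr-/- mice 8 rose and 4 fell of 112 (10.7%, against 19.1% of all genes), with a median of -0.004 against -0.01 over all genes. Those that rose were Cd74 (1.92, an invariant chain of antigen presentation), Phf11d (1.31), Dhx58 (0.82), Ifitm3 (0.66), Irf9 (0.55), Irf3 (0.37), Ptpn2 (0.30) and Stat3 (0.20), and those that fell were Ido1 (-0.97), Tmem173 (-0.78, the adaptor of cytosolic DNA sensing), Ifit3b (-0.61) and Xaf1 (-0.56). In the same comparison the summed markers of border macrophages were 99 to 111 after PBS and 191 to 240 after morphine, and those of meninges 776 to 834 and 1352 to 1783, and their part in the rise of Cd74 and the others was not tested. No gene of the lists had an interaction of genotype and morphine (0 of 111 in the NAc and 0 of 119 in the VTA by limma, 6 and 12 at an unadjusted p under 0.05, and 0 by edgeR in both).

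Between regions, 91 of 118 genes of the lists were called (77.1%, against 72.9% of all genes), 75 lower and 16 higher in the NAc (37.8% of all genes were called lower), with a median of -0.33 (log2) against -0.02 over all genes. Of the other interferon-stimulated genes 31 of 47 were lower and 3 higher, among them Ifit2 at -1.21 ± 0.07, Ifit3b at -0.80 ± 0.11, Xaf1 at -0.83 ± 0.08 and Ly6e at -0.31 ± 0.03. Pml was higher in the NAc, at 0.91 ± 0.05. Of antigen presentation genes 25 of 29 were lower, such as H2-D1 at -0.84 ± 0.06 and B2m at -0.50 ± 0.05, and Ido1 was higher at 3.40 ± 0.16. Sensors were lower in 11 and higher in 3 of 19 (Mavs -0.90 ± 0.06, Tlr3 -0.55 ± 0.04, Aim2 0.65 ± 0.10). Only the Jak, Stat and Irf factors were more often higher than lower, with 8 against 4 of 16, among them Jak2 at 0.74 ± 0.04. Of 7 receptors and ligands tested, 1 was higher (Ifnar1, 0.13 ± 0.03) and 4 lower (Ifnlr1 at -1.52 ± 0.21).

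**Figure D5:**
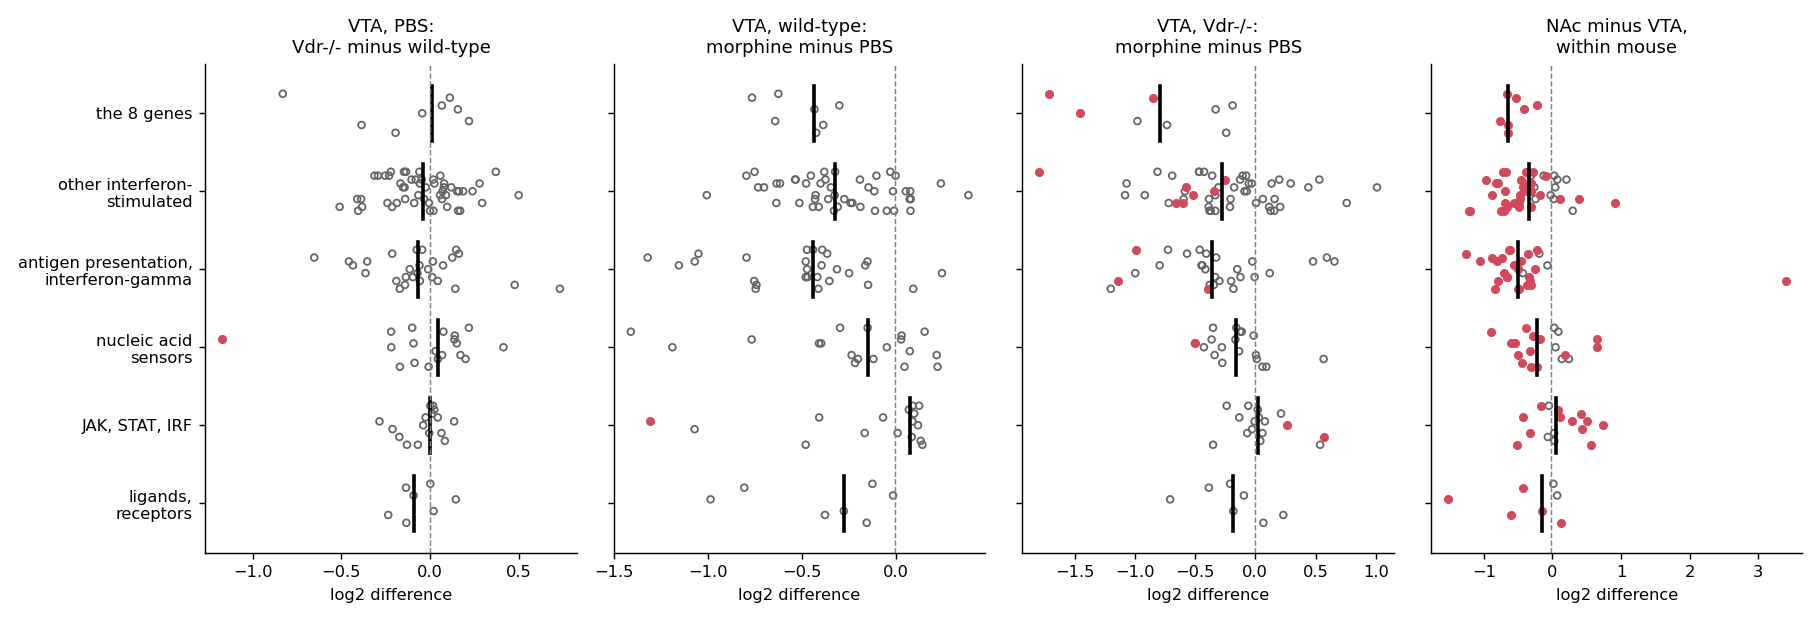
Log2 difference of each gene of the 8 members and the 5 wider lists (horizontal axis) in the VTA between genotypes after PBS, in the VTA with morphine in each genotype, and between regions, with called genes in red, others as open circles, list medians as black bars and the median of all genes as a dashed line. Medians lie near 0 between genotypes, below 0 in the VTA with morphine for other interferon-stimulated genes (-0.32 in the wild-type panel, -0.28 in the Vdr-/- panel) and antigen presentation (-0.44 and -0.36), and below 0 between regions for all lists but the Jak, Stat and Irf factors.

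Whether Ifit3 moved alone was also described within groups. Over the 24 libraries, after taking each group's mean away, Pearson's r of Ifit3 with 16146 genes was highest for Wfdc1 (0.84), Mid1ip1 (0.83) and BC025920 (0.79). Ifit3b stood at 0.72 (rank 31), Ifit1 at 0.43 (rank 984), Bst2 at 0.28, Usp18 at 0.14, Ifi27 at 0.13, Ifit2 at -0.07, Oasl2 at -0.21 and Irf7 at -0.47. These values share the libraries and their depth and, for Ifit3b, possibly reads, and 542 genes had an r over 0.5, so they are a description. Ifit3 thus varied with its copy Ifit3b more than with any other member, while its difference between genotypes was larger than that of Ifit3b or of any other member in the comparisons in which these were tested.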

How the data were processed

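RNA was extracted from frozen punches with Trizol, and libraries were made with a directional kit and sequenced in pairs of 101-base reads. The submitters' processing notes name CASAVA 1.8, Trimmomatic 0.36 and STAR 2.4.2a, and the authors mapped reads to the GENCODE mouse genome (GRCm38), counted them per gene and scaled them with DESeq2. The deposited values are signal, that is counts divided by the size factor of the library within its table, in 8 tables of 2 groups each. Values of 46 library columns were whole multiples of 1 read for 100% of genes (tolerance 0.01), so reads were recovered, and rescaled by size factors over all 24 libraries for levels, interactions and regions. A gene is listed in a table only where its reads sum to at least 2.

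limma 3.58.1 (eBayes, trend of the variance with the level) was fitted to log2(value + 1) of genes whose mean reached 10. Tests were two-sided, p-values were adjusted over all genes after Benjamini and Hochberg, and the threshold was 0.05. Each fit used the libraries of 1 table, the interaction the 12 libraries of a region, and the region the difference between both punches of each of 12 mice. The labels give the same number to 1 NAc and 1 VTA punch, with a letter for the region. That number was taken as the mouse, which the labels do not state, and the pairing rests on it. No number is shared between genotypes or injections. edgeR 4.0.16 and DESeq2 1.42.0 on the recovered reads, a pseudocount of 0.5 or 5, no filter or a mean of at least 50, no trend and leaving out each mouse were alternatives. Members, lists and tests were chosen with earlier results of these data known, and the lists were compiled from general knowledge. Named genes are the members, Ifit2, Ifit3b, list genes that were called, up to 6 per list for the regions, and the 3 genes with the highest correlation with Ifit3. Aim2 and Adar across all 4 comparisons were singled out after their values were seen. Annotation was GENCODE M21 (30204 of 30270 identifiers matched). The limma fits were tested on simulated counts. R 4.3.3, Python 3.11.15, numpy 2.4.6, pandas 2.3.3 and matplotlib 3.10.9 were used.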

Additional observations from a re-analysis of the deposited data

Results flagged for a closer look

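In wild-type mice 5 of 118 wider list genes (4.24%) differed between injections in their regional difference (NAc minus VTA, log2, morphine minus PBS). These calls are by limma on within-mouse differences over all genes, where 6.69% of genes were called. The count is therefore not a result about the lists, and leaving out 1 mouse at a time gave 0 to 9 genes. B2m changed by 0.70 ± 0.13 (SE, adjusted p = 0.0127), with 633 ± 26.8 (mean ± SD, 3 mice) in the NAc and 1154 ± 169 in the VTA after PBS, and 729 ± 69.3 and 811 ± 62.3 after morphine. Tlr3 changed by 0.56 ± 0.12 (adjusted p = 0.0233 by limma), Parp14 by 0.83 ± 0.19 (adjusted p = 0.0248 by limma) and Uba7 by 0.86 ± 0.22 (adjusted p = 0.0400 by limma). Parp14 was 61.7 ± 13.5 in the NAc and 106 ± 4.72 in the VTA after PBS, and 69.2 ± 18.6 and 67.2 ± 14.8 after morphine. Cd74 changed by 2.20 ± 0.52 (adjusted p = 0.0292 by limma), from 15.6 ± 1.97 in the NAc and 63.8 ± 25.1 in the VTA after PBS to 30.3 ± 11.1 and 24.2 ± 8.26 after morphine. In each of the 5 the wild-type VTA mean was lower after morphine than after PBS. The VTA punches of these 3 mice given morphine also held 1668 to 6062 of the summed dopamine neuron markers against 30097 to 38976 after PBS, and the part of that in these values was not tested.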

How the results depend on the processing

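Over all alternatives 1566 log2 differences of the members were recomputed. Of 190 that belong to a called member none turned its sign, and 7 of the 1566 moved by more than the SD between replicates. Counts of calls moved more. The share of all genes called under each of these settings is not given here, so the counts are not read as a result about these genes. DESeq2 called 1 member, Ifit3, in each of the genotype comparisons of the NAc after morphine and of the VTA after PBS and after morphine, where limma called none, and 1 gene of the wider lists, where limma called none, in the NAc after PBS, the VTA after morphine and the wild-type NAc with morphine. With no variance trend 0 wider genes were called in the NAc after morphine and 0 in the VTA after PBS between genotypes. A mean of at least 50, which leaves fewer genes tested, gave 0 members in the NAc after PBS and 3 between regions. In the wild-type NAc with morphine log2(value + 5), no filter and edgeR gave 1 wider gene. In the Vdr-/- NAc with morphine the 1 member became 0 with a pseudocount of 0.5, no filter, a mean of at least 50, no trend or DESeq2, and the 12 wider genes became 7 with a mean of at least 50, 6 with no trend and 3 with DESeq2. In the wild-type VTA with morphine the 1 wider gene became 0 with a mean of at least 50 or no trend, 4 with DESeq2 and 20 with all 3 PBS mice. In the Vdr-/- VTA with morphine no trend gave 0 members and 0 wider genes, and all 3 PBS mice gave 8 wider genes. Apart from the fewer genes or other mice named, the cause was not tested.

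Leaving out 1 mouse at a time gave 0 to 1 member in the NAc after PBS between genotypes, where only the fit without wild-type PBS mouse 2 kept the call. It gave 0 to 1 wider gene in the NAc after morphine and in the VTA after PBS, and 0 to 1 in the wild-type NAc with morphine. With morphine it gave 0 to 1 member and 4 to 9 wider genes in the Vdr-/- NAc. In the VTA it gave 0 to 1 member and 0 to 16 wider genes in wild-type, and 0 to 4 members and 0 to 15 wider genes in Vdr-/- mice. Between regions it gave 5 to 7 members and 84 to 92 wider genes. For the change of the regional difference with morphine in wild-type mice it gave 0 to 9 wider genes. How many of all genes each of these fits called is not given here, so the counts may follow that total. Where only 1 VTA library of a group was left, it was assumed to vary like the others.

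The regional fits used each mouse as a block. With no replicate block 7 members and 92 wider genes were called between regions, and 6 wider genes for the change with morphine in wild-type mice, so no call of a member changed. No paired analysis was possible because no mouse number is shared between genotypes or injections, for those comparisons. Depth limits Isg15, Usp18, Bst2 and Irf7 most, with at most 21, 52, 52 and 60 reads per library.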
